A study of Mus musculus with 64 samples.

Results

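Control livers collected at ZT15 were compared with control livers collected at ZT3, with 4 libraries at each time, which makes 8 of the 64 libraries of the study. Zeitgeber time (ZT) counts hours from lights on, so ZT15 falls in the early dark phase, when mice feed, and ZT3 in the early light phase, when they rest. All mice were C57BL/6J males fed ad libitum, and all had received an AAV8 vector with a hairpin 4 weeks before collection. The control hairpin (sh-Ctl) defines the 2 groups compared here, sh-Ctl ZT15 and sh-Ctl ZT3; the other hairpin (sh-Acsf3) lowers Acsf3, a mitochondrial malonyl-CoA synthetase, in liver. The members are the libraries labelled sh-Ctl at these 2 times, and no expression value was used to choose them. They are also set against sh-Acsf3 livers of the same times and against sh-Ctl livers of ZT12, ZT0, ZT18 and ZT6, with 4 libraries in each group. RNA was counted with BRB-seq, a bulk method that barcodes each sample and counts the 3′ ends of transcripts as unique molecular identifiers (UMIs). Levels are given in counts per M UMIs (CPM) after TMM scaling of the library totals. Because 1 UMI stands for 1 transcript end, CPM needs no correction for gene length.

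The liver clock is a feedback loop. CLOCK or NPAS2 pairs with BMAL1 (encoded by Arntl) and switches on the Per, Cry, Nr1d and Dbp genes through E-boxes; PER and CRY proteins then block the pair, and the Nr1d products repress Arntl. Feeding adds a second daily signal to liver, through insulin, nutrients and body temperature, and drives genes of fat, glycogen and bile acid synthesis.

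Totals were 2.16 to 4.18 M UMIs per library at ZT15 and 1.48 to 3.86 M UMIs at ZT3, and transcripts of the mitochondrial genome took 16.2 to 20.1% of them at ZT15 and 17.1 to 21.7% at ZT3. In the 8 libraries the summed level of hepatocyte markers was 97700 to 127000 CPM at ZT15 and 119000 to 131000 CPM at ZT3. A pair of ZT15 libraries stood apart. Replicate 2 held Saa1, an acute-phase gene, at 2092 CPM, against at most 251 CPM in the other 7, and replicate 4 held 436 CPM of exocrine pancreas transcripts in sum, against at most 39.5 CPM. For some of the values that rest on either library, a value without it is given. Below, "the libraries that stood apart" are this pair with 4 libraries of other control times high in the same transcripts. Calls given as lost without 1 library can also have been lost without these. The labels do not say that the 4 replicates are separate animals, so the p-values measure the spread between these libraries.

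Of 10097 genes tested, 515 (5.1%) differed between ZT15 and ZT3 at an adjusted p below 0.05 (edgeR quasi-likelihood test with Benjamini-Hochberg adjustment, used for every adjusted p below). At ZT15, 258 genes (2.56%) were higher and 257 (2.55%) lower. A change of at least 2-fold was seen in 105 of the higher genes (1.04% of those tested) and 107 of the lower ones (1.06%), and a change of at least 4-fold in 27 (0.267%) and 16 (0.158%). The 4 ZT15 values did not overlap the 4 ZT3 values in 1067 genes (10.6%), of which 543 (5.38%) were above and 524 (5.19%) below. When each of the 8 libraries was left out in turn, 121 of the 258 higher and 119 of the 257 lower genes kept their call in all 8 fits. Calls numbered 358 to 457 in these fits, and the lower genes numbered 168 without ZT15 replicate 4. Without ZT15 replicates 2 and 4 and the 4 libraries of other control times that were high in Saa1 or pancreas RNA, a choice made after seeing the data, 266 genes passed, of which 227 were among the 515. With library totals alone as the scale, 302 genes were higher and 154 lower. In bulk tissue, fewer cells of a type and less RNA per cell cannot be told apart.

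**Figure D1:**
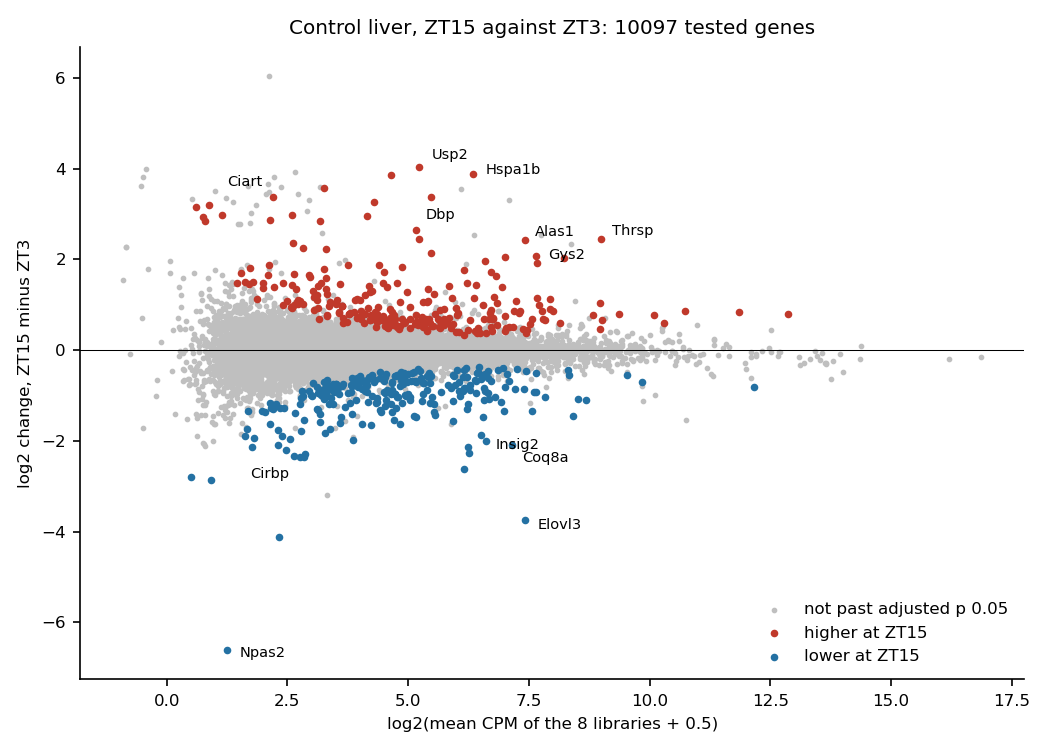
Each point is 1 of the 10097 tested genes, with the log2 of the mean CPM over the 8 control libraries (plus 0.5) on the x axis and the log2 change of ZT15 minus ZT3 on the y axis; red genes were higher and blue genes lower at adjusted p below 0.05. The 258 higher genes reach a log2 change of 4.03 at Usp2, and the 257 lower genes include Elovl3 at -3.75; the point for Npas2 is a fitted value for a gene with no UMI at ZT15.

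Over all 8 control times, 169 of the 258 higher genes had their highest mean at ZT15, 56 at ZT12 and 22 at ZT18. Of the 257 lower genes, 109 had it at ZT3, 64 at ZT0, 39 at ZT6, 23 at ZT21 and 21 at ZT9. These counts are a description, since the ZT15 and ZT3 libraries also chose the genes.

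The 12 largest rises included Usp2, Wee1, Per2, Per3 and Dbp of the clock lists and the heat shock gene Hspa1b. Means are given ± SD over 4 libraries and log2 changes ± SE. Usp2 (ENSMUSG00000032010, GRCm38 chr9:44067021-44095627, plus strand), a deubiquitinating protease, had 60.2, 67.2, 74.7 and 75.8 CPM at ZT15, against 1.56, 4.98, 5.65 and 6.00 CPM at ZT3. Every ZT15 library lay far above every ZT3 library, and the log2 change was 4.03 ± 0.33 (adjusted p = 1.07e-12). Pcsk4, a proprotein convertase, averaged 16.7 ± 3.09 CPM at ZT15 and 1.26 ± 0.428 CPM at ZT3. Noct, a rhythmic phosphatase, averaged 34.9 ± 13.5 CPM at ZT15 and 3.56 ± 0.181 CPM at ZT3. The log2 changes of Pcsk4 and Noct were 3.58 ± 0.46 and 3.27 ± 0.51. Wee1, a kinase that holds back entry into mitosis, averaged 15.3 ± 3.48 CPM at ZT15 and 1.88 ± 0.966 CPM at ZT3 (log2 change 2.84 ± 0.29). Tsku, which encodes a protein secreted by liver, reached 62.7 ± 12.0 CPM at ZT15 and 11.1 ± 1.97 CPM at ZT3 (log2 change 2.46 ± 0.36). Nrg4, a growth factor of the EGF family, averaged 9.64 ± 5.41 CPM at ZT15 and 1.40 ± 0.842 CPM at ZT3 and rose by 2.97 ± 0.46 on the log2 scale. Rrm2, a subunit of ribonucleotide reductase, averaged 15.3 ± 8.45 CPM at ZT15 and 3.37 ± 0.817 CPM at ZT3, a log2 change of 2.22 ± 0.46 that missed the threshold without the libraries that stood apart (adjusted p = 0.0613). Alas1, the rate-limiting enzyme of haem synthesis, had 199.6, 263, 202 and 483 CPM at ZT15, against 48.1, 58.2, 68.2 and 37.5 CPM at ZT3. Its ZT15 values lay above all ZT3 values, with a log2 change of 2.42 ± 0.60 and an adjusted p of 0.0084, which became 0.0526 without ZT15 replicate 4. Without the libraries that stood apart the adjusted p of Alas1 was 0.134. The other genes of the 12 largest rises were Hspa1b, Per2, Per3 and Dbp, described below.

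Among the largest falls, Elovl3 (GRCm38 chr19:46131897-46135694, plus strand), an elongase of very long chain fatty acids, had 16.0, 30.0, 35.5 and 12.5 CPM at ZT15, against 364, 189, 388 and 327 CPM at ZT3. The groups were far apart, and the log2 change was -3.75 ± 0.43 (adjusted p = 1.2e-08). Rnf125, a ubiquitin ligase, averaged 19.9 ± 5.46 CPM at ZT15 and 121 ± 5.91 CPM at ZT3 (log2 change -2.61 ± 0.26). Coq8a, needed for coenzyme Q synthesis, averaged 53.4 ± 11.6 CPM at ZT15 and 228 ± 50.6 CPM at ZT3 (log2 change -2.10 ± 0.20). Insig2, which holds the SREBP precursors in the endoplasmic reticulum, had 41.3, 46.8, 34.6 and 32.5 CPM at ZT15, against 143, 134, 183 and 158 CPM at ZT3. Lack of overlap was part of the choice of the falls too. Insig2 changed by -2.00 ± 0.23 on the log2 scale (adjusted p = 4.21e-09). Aqp8, a water channel, averaged 27.7 ± 10.1 CPM at ZT15 and 123 ± 26.2 CPM at ZT3 (log2 change -2.14 ± 0.49). Tubb2a, a beta-tubulin, averaged 26.8 ± 11.5 CPM at ZT15 and 125 ± 28.1 CPM at ZT3 (log2 change -2.26 ± 0.41). The remaining falls, apart from Rsad2, were of genes with ZT3 means from 8.28 to 11.3 CPM. They were Cirbp, described below, Asap2 (-2.35 on the log2 scale), Ndrg1 (-2.28), Dtx4 (-2.21) and Spon2 (-2.34). Rsad2, the interferon-induced viperin, averaged 5.97 ± 2.09 CPM at ZT15 and 22.2 ± 8.30 CPM at ZT3 (log2 change -1.98 ± 0.42). Spon2 and Rsad2 missed the threshold without the libraries that stood apart, with adjusted p of 0.0517 and 0.0886.

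In the activating limb of the clock, 3 of 5 genes were lower at ZT15 and none was higher (60% called, against 5.1% of all genes tested). Npas2 had no UMI in the 4 ZT15 libraries, against 5.98, 3.88, 2.12 and 3.00 CPM at ZT3 (47 UMIs in sum). With a floor of 3 UMIs over the 4 ZT15 libraries, Npas2 was at least 17.2-fold lower at ZT15 (adjusted p = 2.76e-06). Arntl, which encodes BMAL1, had 5.47, 4.65, 1.45 and 3.37 CPM at ZT15, against 15.9, 12.7, 7.42 and 2.25 CPM at ZT3. The groups overlapped, because ZT3 replicate 4 lay inside the ZT15 range, and the log2 change was -1.55 ± 0.37 (adjusted p = 0.00448), with an adjusted p of 0.0756 without ZT3 replicate 1. Rora, which encodes a receptor that activates Arntl, averaged 59.3 ± 11.9 CPM at ZT15 and 88.3 ± 7.61 CPM at ZT3, a log2 change of -0.58 ± 0.18 (adjusted p = 0.0356) that kept its call, of the 8 fits that left out a library, only in the one without ZT15 replicate 1, with adjusted p from 0.0549 to 0.199 in the other 7. Clock averaged 17.0 ± 3.89 CPM at ZT15 and 23.8 ± 6.68 CPM at ZT3 (log2 change -0.54 ± 0.23, adjusted p = 0.174) and did not pass the threshold.

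In the repressing limb, 5 of 12 tested members were higher, 1 was lower and 6 were not past the threshold (50% called, against 5.1% of all genes tested). Per2 had 52.6, 27.5, 21.5 and 21.2 CPM at ZT15, against 5.98, 4.43, 1.41 and 2.25 CPM at ZT3. All 4 ZT15 values lay above all ZT3 values, and the log2 change was 2.95 ± 0.48 (adjusted p = 2.27e-05). Per3 had 14.7, 9.29, 9.01 and 9.62 CPM at ZT15, against 1.30, 3.05, 1.41 and 3.75 CPM at ZT3, a log2 change of 2.25 ± 0.41 (adjusted p = 0.000126). Per1 was rarer, with 10.1, 5.72, 6.11 and 5.29 CPM at ZT15, against 0, 1.66, 0.707 and 1.50 CPM at ZT3. It rose by 2.88 ± 0.55 on the log2 scale (adjusted p = 0.000269), again without overlap. Ciart, a repressor of the CLOCK and BMAL1 pair, had 9.69, 6.79, 8.14 and 5.77 CPM at ZT15, against 1.04, 1.11, 0 and 0 CPM at ZT3. Its log2 change of 3.39 ± 0.54 (adjusted p = 8.16e-06) rests on 8 UMIs over the 4 ZT3 libraries and 94 over the 4 ZT15 libraries. Bhlhe40, which competes for E-boxes, averaged 122 ± 25.3 CPM at ZT15 and 45.5 ± 7.80 CPM at ZT3 (log2 change 1.44 ± 0.30, adjusted p = 0.000914). These 5 genes kept their call in all 8 fits without a library.

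Against this direction, Nr1d1, the repressor REV-ERBα, had 1.68, 2.86, 6.40 and 3.61 CPM at ZT15, against 5.98, 10.2, 17.7 and 24.7 CPM at ZT3. The groups overlapped by 1 library each, and the log2 change was -1.82 ± 0.50 (adjusted p = 0.0196). The call was lost without any 1 of ZT15 replicates 1, 2 and 4 and ZT3 replicates 3 and 4 (adjusted p from 0.0574 to 0.0865). Nr1d2, its paralogue, averaged 23.9 ± 4.61 CPM at ZT15 and 15.1 ± 3.47 CPM at ZT3 without overlap, yet did not pass (log2 change 0.65 ± 0.25, adjusted p = 0.121). The cryptochromes did not pass either, with Cry1 at 8.82 ± 1.85 CPM at ZT15 and 6.29 ± 2.73 CPM at ZT3 (log2 change 0.38 ± 0.31) and Cry2 at 12.4 ± 2.27 CPM at ZT15 and 12.2 ± 2.91 CPM at ZT3 (log2 change -0.05 ± 0.23, whose sign turned positive under 6 alternatives). The casein kinases that phosphorylate PER proteins also stayed short of the threshold. Csnk1d changed by -0.23 ± 0.17 on the log2 scale (adjusted p = 0.554) and Csnk1e by -0.09 ± 0.30 (adjusted p = 0.948), the last with a positive sign without ZT15 replicate 4 or ZT3 replicate 3.

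Among the PAR bZIP factors, which bind D-boxes and pass clock time on to metabolic genes, 3 of the list of 4 were higher at ZT15 (75% called, against 5.1% of all genes tested). Dbp had 52.2, 39.3, 75.0 and 77.2 CPM at ZT15, against 4.68, 14.4, 13.1 and 5.25 CPM at ZT3. All ZT15 values lay above all ZT3 values, and the log2 change was 2.65 ± 0.39 (adjusted p = 4.77e-06). Tef averaged 72.2 ± 10.4 CPM at ZT15 and 16.1 ± 3.84 CPM at ZT3 (log2 change 2.13 ± 0.24, adjusted p = 2.53e-09). Hlf averaged 53.2 ± 10.1 CPM at ZT15 and 25.5 ± 2.68 CPM at ZT3 (log2 change 1.07 ± 0.17, adjusted p = 5.9e-06). Nfil3, a repressor that binds the same element, had 9.69, 9.65, 8.14 and 10.8 CPM at ZT15, against 22.6, 15.5, 14.5 and 21.7 CPM at ZT3. Its groups did not overlap, but the log2 change of -0.94 ± 0.31 did not pass (adjusted p = 0.0691).

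**Figure D2:**
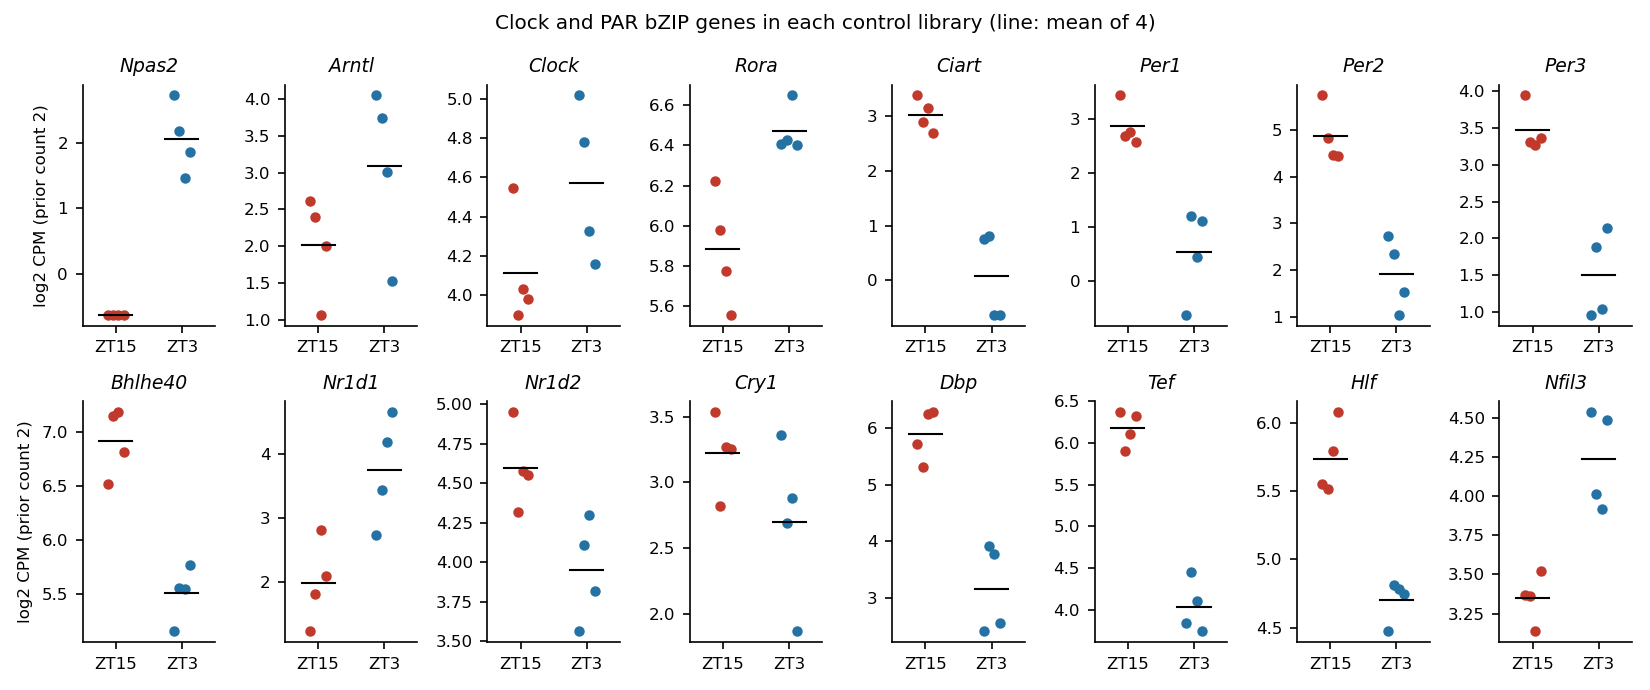
Each panel is 1 gene, each point 1 control library (ZT15 red, ZT3 blue), the y axis is log2 CPM with a prior count of 2 and the line is the mean of 4. Npas2 lies at the bottom of its panel in all 4 ZT15 libraries, the Per genes, Ciart, Bhlhe40, Dbp, Tef and Hlf are higher at ZT15 in every library, and Arntl and Nr1d1 overlap between the times.

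Only some promoters of rising clock genes hold one of the elements searched. The stretches below are the 250 bases before a RefSeq transcription start (GRCm38.p6), shown because these genes rose and hold such an element, with E-boxes (CACGTG) in capitals for Ciart, Per1 and Tef and D-boxes (TTATGTAA or TTACGTAA) in capitals for Per3.
Ciart (chr3:95882229-95882478, minus strand): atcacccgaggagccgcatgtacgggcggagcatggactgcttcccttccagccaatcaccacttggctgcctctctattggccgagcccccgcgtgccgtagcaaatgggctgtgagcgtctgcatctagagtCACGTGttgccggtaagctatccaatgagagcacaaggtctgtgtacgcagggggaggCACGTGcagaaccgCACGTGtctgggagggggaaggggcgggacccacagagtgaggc
Per1 (chr11:69098699-69098948, plus strand): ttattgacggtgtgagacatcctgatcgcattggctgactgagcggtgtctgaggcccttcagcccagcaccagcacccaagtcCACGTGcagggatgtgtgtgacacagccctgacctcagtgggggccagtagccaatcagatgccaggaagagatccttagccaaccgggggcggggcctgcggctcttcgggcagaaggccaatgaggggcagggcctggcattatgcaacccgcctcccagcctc
Tef (chr15:81802423-81802672, plus strand): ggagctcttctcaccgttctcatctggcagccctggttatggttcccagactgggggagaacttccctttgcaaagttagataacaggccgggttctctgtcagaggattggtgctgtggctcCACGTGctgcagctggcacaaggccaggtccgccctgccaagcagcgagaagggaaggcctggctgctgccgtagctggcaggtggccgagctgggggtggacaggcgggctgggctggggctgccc
Per3 (chr4:151044666-151044915, minus strand): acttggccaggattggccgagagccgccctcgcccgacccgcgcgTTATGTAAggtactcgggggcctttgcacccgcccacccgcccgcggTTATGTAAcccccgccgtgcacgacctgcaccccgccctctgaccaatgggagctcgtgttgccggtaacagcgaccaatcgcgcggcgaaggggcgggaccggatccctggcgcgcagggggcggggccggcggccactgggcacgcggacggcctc
The Ciart stretch holds 3 E-boxes, the Per1 and Tef stretches 1 each, and the Per3 stretch 2 D-boxes. Both strands of windows from 250 bases before to 50 after the start were searched; 8.09% of the 27025 genes with a window hold an E-box there and 1.23% a D-box. Of 8 repressing-limb genes with a window, 3 hold an E-box (Ciart, Per1 and Cry1, which did not pass the test) and 1 (Per3) a D-box, and of the 4 activating-limb genes with a window 1 (Arntl) holds a ROR element (TAGGTCA or TGGGTCA), found in 7.35% of all genes. The windows of Dbp, Nr1d1 and Npas2 hold none of these letters. Of 15 clock output genes with a window, 1 holds an E-box, 0 a D-box and 2 a ROR element. The windows of the rising genes Usp2, Hlf, Nampt and Por hold none of the 3.

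Among clock output genes, 9 of 17 were higher and 2 lower at ZT15 (64.7% called, against 5.1% of all genes tested). Besides Usp2 and Wee1, Nampt, the rate-limiting enzyme of NAD salvage, had 129.7, 91.5, 124 and 93.6 CPM at ZT15, against 36.6, 30.5, 33.6 and 25.5 CPM at ZT3. It rose by 1.78 ± 0.19 on the log2 scale with no overlap (adjusted p = 1.04e-09). Por, the electron donor of the cytochromes P450, averaged 206 ± 23.0 CPM at ZT15 and 49.2 ± 6.89 CPM at ZT3 (log2 change 2.06 ± 0.24, adjusted p = 2.04e-08). Cyp2a5, a coumarin hydroxylase, averaged 484 ± 159 CPM at ZT15 and 118 ± 53.8 CPM at ZT3 (log2 change 2.02 ± 0.31). Tspan4, a tetraspanin, averaged 60.2 ± 5.11 CPM at ZT15 and 23.6 ± 4.75 CPM at ZT3 (log2 change 1.34 ± 0.22). Upp2, a uridine phosphorylase, averaged 108 ± 32.0 CPM at ZT15 and 39.4 ± 9.10 CPM at ZT3 (log2 change 1.47 ± 0.31), which missed the threshold without the libraries that stood apart (adjusted p = 0.0563). Mthfd1l, of mitochondrial folate metabolism, was low, at 3.12 ± 1.88 CPM at ZT15 and 0.296 ± 0.394 CPM at ZT3 (log2 change 2.98 ± 0.70). Lpin1, of triglyceride synthesis, is described with the lipid genes. Elovl3 and Avpr1a, the vasopressin receptor of liver, were the lower members, with Avpr1a at 7.80 ± 1.78 CPM at ZT15 and 24.2 ± 3.79 CPM at ZT3 (log2 change -1.62 ± 0.25, adjusted p = 5.55e-06).

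Of 22 heat shock and cochaperone genes, 5 were higher and none lower at ZT15 (22.7% called, against 5.1% of all genes tested). Of the 22 log2 changes, 20 were positive (median 0.50, against -0.00729 over all genes tested). Hspa1b (GRCm38 chr17:34956436-34959238, minus strand), an inducible HSP70, had 106, 341, 64.8 and 91.4 CPM at ZT15, against 10.1, 6.09, 13.8 and 11.2 CPM at ZT3. Replicate 2, the library with high Saa1, was far above the rest. Every ZT15 value still lay above every ZT3 value, with a log2 change of 3.89 ± 0.57 (adjusted p = 3.11e-06) and a log2 change of 3.11 without replicate 2. In a fit of these 8 libraries alone with the replicate number as a block, Hspa1b missed the threshold (adjusted p = 0.128). Bag3, a cochaperone of HSP70, had 24.8, 54.0, 25.6 and 24.3 CPM at ZT15, against 14.6, 9.69, 8.84 and 13.5 CPM at ZT3 (log2 change 1.47 ± 0.31, adjusted p = 0.00102). Its log2 change ran from 1.11 to 1.65 in the 8 fits that left out a library. Dnajb1, an HSP40, had 19.8, 19.7, 10.8 and 17.8 CPM at ZT15, against 7.28, 4.98, 5.65 and 6.75 CPM at ZT3 (log2 change 1.46 ± 0.31, adjusted p = 0.00102). Hspa8, the constitutive HSC70, averaged 677 ± 127 CPM at ZT15 and 331 ± 13.5 CPM at ZT3 (log2 change 1.03 ± 0.26). Dnaja1 averaged 160.0 ± 25.9 CPM at ZT15 and 94.4 ± 11.7 CPM at ZT3 (log2 change 0.76 ± 0.20, adjusted p = 0.012), with adjusted p of 0.0509 without ZT15 replicate 1 and 0.06 without ZT3 replicate 3. Without the libraries that stood apart, Bag3 and Hspa8 also missed the threshold, with adjusted p of 0.057 and 0.0576. Hspa1a, nearly identical to Hspa1b so that reads can be split between them, averaged 3.68 ± 1.99 CPM at ZT15 and 1.10 ± 0.408 CPM at ZT3 (log2 change 1.79 ± 0.62, adjusted p = 0.0846).

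Of the 4 cold-inducible RNA-binding genes, 1 passed the test (25%, against 5.1% of all genes tested). Cirbp, which is induced by mild cold, had 0.842, 1.79, 1.74 and 3.13 CPM at ZT15, against 7.80, 10.2, 12.7 and 12.0 CPM at ZT3. The groups were apart, with a log2 change of -2.36 ± 0.43 (adjusted p = 9.42e-05). Rbm3, the other well-known cold-induced gene, averaged 2.92 ± 1.35 CPM at ZT15 and 1.00 ± 0.417 CPM at ZT3 (log2 change 1.43 ± 0.51, adjusted p = 0.0945), the opposite sign. Srsf5 averaged 9.54 ± 5.27 CPM at ZT15 and 18.5 ± 7.06 CPM at ZT3 (log2 change -1.04 ± 0.35, adjusted p = 0.0798) and Rbm7 averaged 32.6 ± 5.82 CPM at ZT15 and 32.1 ± 2.14 CPM at ZT3 (log2 change 0.03 ± 0.12, with a negative sign without ZT15 replicate 2). 

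Chaperones of the endoplasmic reticulum gave a single call. Of 27 tested genes of the unfolded protein response, 1 passed (3.7%, against 5.1% of all genes tested), and 23 of the 27 log2 changes were negative (median -0.252). Herpud1, of protein degradation at the endoplasmic reticulum, averaged 328 ± 107 CPM at ZT15 and 182 ± 33.7 CPM at ZT3 with overlap (log2 change 0.85 ± 0.26, adjusted p = 0.0404), and its call was lost without any 1 of ZT15 replicates 1, 2 and 3 and ZT3 replicates 2, 3 and 4 (adjusted p from 0.0651 to 0.2). None of 13 tested genes of the integrated stress response passed (median log2 change -0.108).

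Stretches before the starts of rising heat shock genes are shown for their heat shock elements (GAANNTTC or TTCNNGAA), here in capitals.
Hspa1b (chr17:34959239-34959488, minus strand): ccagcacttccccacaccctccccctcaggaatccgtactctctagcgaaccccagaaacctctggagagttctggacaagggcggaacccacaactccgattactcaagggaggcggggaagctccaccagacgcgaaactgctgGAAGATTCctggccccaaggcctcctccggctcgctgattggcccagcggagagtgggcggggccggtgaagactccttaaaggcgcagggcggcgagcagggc
Dnaja1 (chr4:40722218-40722467, plus strand): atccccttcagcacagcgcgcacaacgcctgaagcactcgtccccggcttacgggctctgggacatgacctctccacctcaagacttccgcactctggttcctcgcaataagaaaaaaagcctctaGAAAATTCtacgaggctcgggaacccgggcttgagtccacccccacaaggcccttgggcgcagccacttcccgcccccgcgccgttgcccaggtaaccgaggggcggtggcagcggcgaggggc
Each stretch holds 1 such element. It was found in the windows of 12 of the 19 listed heat shock genes that have one, against 17.0% of all genes, and the window of Dnajb1 holds none. Genes that did not pass at ZT15 hold it too, among them Hsph1, Hspd1, Hspb1 and Chordc1. The ER stress element (CCAAT and CCACG with 9 bases between) lay in the windows of 9 of 22 endoplasmic reticulum genes, against 0.137% of all genes. The window of Herpud1, the only gene of that list to pass, holds none.

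Some fat synthesis genes were higher at ZT15. Of 18 tested genes in the list of de novo lipogenesis and SREBP1c, 5 rose and none fell (27.8% called, against 5.1% of all genes tested, with a median log2 change of 0.563). Fads2, the delta-6 desaturase, had 309, 185, 293 and 325 CPM at ZT15, against 132, 107, 132 and 129 CPM at ZT3. It showed no overlap and kept its call in all 8 fits without a library (log2 change 1.16 ± 0.20, adjusted p = 4.84e-05). Elovl6, an elongase of C16 fatty acids, had 190.3, 269, 231 and 600.2 CPM at ZT15, against 88.6, 89.4, 68.6 and 56.2 CPM at ZT3. Replicate 4, the library with pancreas RNA, was highest, and the log2 change of 2.08 ± 0.50 (adjusted p = 0.00538) had an adjusted p of 0.0673 without it. Thrsp, a lipogenic regulator induced by carbohydrate and thyroid hormone, had 227, 1339.7, 806 and 1084 CPM at ZT15, against 142, 116, 138 and 240.0 CPM at ZT3. ZT15 replicate 1 lay inside the ZT3 range, and the log2 change was 2.46 ± 0.65 (adjusted p = 0.0147), with adjusted p of 0.0516, 0.0576 and 0.0513 without ZT15 replicate 2, ZT3 replicate 2 and ZT3 replicate 3. Mid1ip1, a partner of acetyl-CoA carboxylase, averaged 113 ± 12.5 CPM at ZT15 and 51.0 ± 12.9 CPM at ZT3 (log2 change 1.15 ± 0.29, adjusted p = 0.00972, or 0.0634 without ZT3 replicate 3). Srebf1, which encodes the transcription factor SREBP1, averaged 276 ± 92.2 CPM at ZT15 and 138 ± 31.5 CPM at ZT3 (log2 change 1.00 ± 0.29, adjusted p = 0.0327), lost without any 1 of ZT15 replicate 2 and ZT3 replicates 2, 3 and 4 (adjusted p from 0.0577 to 0.184). Acly, Acaca, Fasn and Scd1, the enzymes from citrate to oleate, did not pass, with log2 changes of 0.70 ± 0.33 for Acaca, 0.70 ± 0.55 for Fasn, 0.43 ± 0.50 for Acly and -0.08 ± 0.48 for Scd1 (adjusted p from 0.262 to 0.975).

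In triglyceride handling 2 of 15 tested genes rose and 1 fell (20% called, against 5.1% of all genes tested). Plin2, which coats lipid droplets, had 141, 104, 126 and 106 CPM at ZT15, against 238, 208, 231 and 185 CPM at ZT3 (log2 change -0.86 ± 0.20, adjusted p = 0.00392). It was lower in every ZT15 library, though it missed the threshold without the libraries that stood apart (adjusted p = 0.114). Mgll, monoglyceride lipase, averaged 204 ± 41.3 CPM at ZT15 and 112 ± 12.5 CPM at ZT3 (log2 change 0.87 ± 0.21, adjusted p = 0.00641). Lpin1, a phosphatidate phosphatase, had 64.4, 171, 198 and 247 CPM at ZT15, against 50.2, 45.7, 65.0 and 62.2 CPM at ZT3. ZT15 replicate 1 overlapped with ZT3, and the call (log2 change 1.62 ± 0.45, adjusted p = 0.0217) was lost without any 1 of ZT15 replicates 3 and 4 and ZT3 replicates 1 and 2 (adjusted p from 0.0524 to 0.0988). Of 25 cholesterol genes, none rose and 2 fell, Insig2 and Hmgcs1 (8% called, against 5.1% of all genes tested, with a median of -0.241). Hmgcs1, which makes HMG-CoA, had 42.1, 32.5, 70.6 and 52.0 CPM at ZT15, against 131, 117, 168 and 137 CPM at ZT3 without overlap (log2 change -1.48 ± 0.42, adjusted p = 0.027), but its call was lost without any 1 of ZT15 replicates 1, 2 and 4 and ZT3 replicates 3 and 4 (adjusted p from 0.051 to 0.0981).

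Gys2, the liver glycogen synthase, had 328, 217, 299 and 443 CPM at ZT15, against 83.9, 93.0, 82.3 and 81.7 CPM at ZT3. The groups were well apart, and the log2 change was 1.92 ± 0.20 (adjusted p = 2.1e-10). It was the only one of 15 glycogen genes to rise, and 1 fell (13.3% called, against 5.1% of all genes tested). Ppp1r3c, a glycogen-targeting phosphatase subunit, was lower, at 12.3 ± 5.99 CPM at ZT15 and 29.3 ± 8.25 CPM at ZT3 (log2 change -1.32 ± 0.41, adjusted p = 0.0489), a call lost without any 1 of ZT15 replicates 2, 3 and 4 and ZT3 replicates 1, 2 and 4 (adjusted p from 0.0564 to 0.25).

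Of 19 genes of glycolysis and fructose use, 3 rose and none fell (15.8% called, against 5.1% of all genes tested). Tkfc, which phosphorylates glyceraldehyde from fructose, had 218, 275, 348 and 499 CPM at ZT15, against 148, 151, 167 and 144 CPM at ZT3 (log2 change 1.14 ± 0.25, adjusted p = 0.00216, or 0.0877 without the libraries that stood apart). It was highest in ZT15 replicate 4 and did not overlap between the times. Slc2a2, the glucose transporter GLUT2, averaged 279 ± 60.0 CPM at ZT15 and 175 ± 34.5 CPM at ZT3 (log2 change 0.67 ± 0.16, adjusted p = 0.00507), with adjusted p of 0.0526 without ZT15 replicate 4 and 0.0529 without ZT3 replicate 1. Without the libraries that stood apart its adjusted p was 0.133. In gluconeogenesis 2 of 21 genes rose and none fell (9.52% called, against 5.1% of all genes tested, with a median of -0.0271). Slc37a4, the glucose-6-phosphate transporter, averaged 153 ± 37.3 CPM at ZT15 and 75.2 ± 9.72 CPM at ZT3 (log2 change 1.03 ± 0.18, adjusted p = 4.91e-05). Gpt2, a mitochondrial alanine aminotransferase, averaged 282 ± 29.1 CPM at ZT15 and 155 ± 11.0 CPM at ZT3 (log2 change 0.86 ± 0.15, adjusted p = 3.2e-05).

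Of 24 PPARα target genes 2 rose and none fell (8.33% called, against 5.1% of all genes tested; median 0.592, with 20 of 24 positive). Cpt1a, the gate of fatty acid entry into mitochondria, had 196, 172, 215 and 221 CPM at ZT15, against 124, 115, 116 and 99.7 CPM at ZT3 (log2 change 0.81 ± 0.17, adjusted p = 0.00106). Fabp1, a fatty acid binding protein, averaged 9435 ± 2623 CPM at ZT15 and 5465 ± 1098 CPM at ZT3 (log2 change 0.79 ± 0.22, adjusted p = 0.0192), lost without any 1 of ZT15 replicates 3 and 4 and ZT3 replicates 2 and 4 (adjusted p from 0.0549 to 0.104). Eci2, an enoyl-CoA isomerase, was the only riser of 19 genes of fatty acid oxidation (5.26% called), at 318 ± 57.4 CPM at ZT15 and 169 ± 35.9 CPM at ZT3 (log2 change 0.90 ± 0.19). In the TCA cycle 2 of 25 genes (8%) rose, Fh1 (fumarase) at 271 ± 18.6 CPM at ZT15 and 169 ± 18.8 CPM at ZT3 (log2 change 0.68 ± 0.13) and Idh3a (a subunit of isocitrate dehydrogenase) at 32.1 ± 2.81 CPM at ZT15 and 19.1 ± 2.71 CPM at ZT3 (log2 change 0.72 ± 0.17). None of 36 complex I subunits and none of 9 transcripts of the mitochondrial genome passed, with log2 changes from -0.346 to 0.211 and from -0.288 to 0.0971.

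Genes of malonyl-CoA handling and mitochondrial fatty acid synthesis, the pathway around ACSF3, gave 1 call among 14 (7.14%, against 5.1% of all genes tested). Acsf3 (GRCm38 chr8:122775486-122817880, plus strand) had 6.32, 10.4, 9.88 and 12.8 CPM at ZT15, against 12.7, 9.97, 9.90 and 18.0 CPM at ZT3. The groups overlapped, and the log2 change was -0.27 ± 0.29 (adjusted p = 0.722), and a difference between ZT15 and ZT3 was not detectable at this depth. Mcat, which loads malonyl groups onto the mitochondrial acyl carrier protein, had 11.8, 12.5, 13.4 and 12.0 CPM at ZT15, against 18.7, 16.3, 20.1 and 18.7 CPM at ZT3 without overlap (log2 change -0.56 ± 0.17, adjusted p = 0.0301). The call was lost without any 1 of ZT15 replicates 1, 2 and 4 and ZT3 replicates 1, 3 and 4 (adjusted p from 0.0562 to 0.1).

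Among amino acid breakdown genes more fell than rose, with 5 of 38 genes lower and 2 higher at ZT15 (18.4% called, against 5.1% of all genes tested). Hal, histidase, had 160.0, 189, 156 and 96.0 CPM at ZT15, against 260.4, 371, 288 and 309.7 CPM at ZT3. Amdhd1, a later step of histidine breakdown, had 95.2, 99.0, 95.1 and 82.0 CPM at ZT15, against 132, 179, 167 and 175 CPM at ZT3. Both were lower in every ZT15 library, with log2 changes of -1.04 ± 0.19 and -0.81 ± 0.15. Cbs, of transsulfuration, averaged 73.0 ± 12.7 CPM at ZT15 and 149 ± 9.98 CPM at ZT3 (log2 change -1.03 ± 0.20). Gldc, of the glycine cleavage system, averaged 49.1 ± 11.5 CPM at ZT15 and 90.8 ± 7.55 CPM at ZT3 (log2 change -0.90 ± 0.14, adjusted p = 7.49e-06). Cdo1, cysteine dioxygenase, was lower at 695 ± 110.2 CPM at ZT15 and 1131 ± 111 CPM at ZT3 (log2 change -0.70 ± 0.21, adjusted p = 0.0303), a call lost without any 1 of ZT15 replicates 1, 3 and 4 and ZT3 replicates 2, 3 and 4 (adjusted p from 0.0547 to 0.119). The 2 risers were Gpt2 and Mat1a, the liver methionine adenosyltransferase, at 1514 ± 209.9 CPM at ZT15 and 997 ± 163 CPM at ZT3 (log2 change 0.60 ± 0.18, adjusted p = 0.0296), whose call was lost without any 1 of ZT15 replicates 1 and 2 and ZT3 replicates 1, 3 and 4 (adjusted p from 0.0502 to 0.117). Of 14 urea cycle genes, 2 rose by the test (14.3%, against 5.1% of all genes tested). They were Arg1, arginase (log2 change 0.47 ± 0.14), lost without any 1 of ZT15 replicates 1 and 2 and ZT3 replicates 2, 3 and 4 (adjusted p from 0.0525 to 0.121), and Slc25a13, the aspartate and glutamate carrier (log2 change 0.38 ± 0.12), lost without any 1 of ZT15 replicates 1, 3 and 4 and ZT3 replicates 1, 2 and 4 (adjusted p from 0.0551 to 0.221). In NAD metabolism Nampt and Nadk, NAD kinase, rose among 14 genes, with Nadk at 201 ± 10.6 CPM at ZT15 and 149 ± 10.2 CPM at ZT3 (log2 change 0.44 ± 0.10, adjusted p = 0.00287, or 0.0992 with no filter on low counts). Parp1, which consumes NAD, was lower (log2 change -0.54 ± 0.16, adjusted p = 0.0306), a call lost without any 1 of ZT15 replicates 1, 2, 3 and 4 and ZT3 replicate 2 (adjusted p from 0.0551 to 0.225). Of the 14 NAD genes, 21.4% were called, against 5.1% of all genes tested.

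Bile acid genes gave calls in both directions. Cyp7a1, the rate-limiting enzyme of bile acid synthesis, had 209, 114, 163 and 157 CPM at ZT15, against 62.4, 75.3, 19.8 and 32.2 CPM at ZT3. All ZT15 values lay above all ZT3 values, with a log2 change of 1.72 ± 0.45 (adjusted p = 0.0135), and an adjusted p of 0.0781 without ZT3 replicate 3 and 0.0553 without ZT3 replicate 4. It was the only riser of 12 synthesis genes, and 1 fell (16.7% called, against 5.1% of all genes tested). Acox2, the peroxisomal oxidase of bile acid side chains, was lower at 109 ± 14.9 CPM at ZT15 and 156 ± 13.9 CPM at ZT3 (log2 change -0.52 ± 0.13, adjusted p = 0.00877, or 0.0958 without ZT15 replicate 4 and 0.0679 without ZT3 replicate 1). Abcb11, the bile salt export pump, was the only 1 of 15 transport and FXR genes to pass (6.67%, against 5.1% of all genes tested). It had 104, 104, 112 and 98.2 CPM at ZT15, against 141, 202, 159 and 169 CPM at ZT3. It was lower in every ZT15 library (log2 change -0.68 ± 0.16, adjusted p = 0.00332, or 0.072 without the libraries that stood apart and 0.057 with library totals alone as the scale).

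Of 30 genes of xenobiotic metabolism, 4 rose and none fell (13.3% called, against 5.1% of all genes tested). The risers were Por, Cyp2a5, Alas1 and Fmo5. Fmo5, a flavin monooxygenase, averaged 573 ± 75.6 CPM at ZT15 and 337 ± 30.3 CPM at ZT3 (log2 change 0.77 ± 0.15, adjusted p = 0.000314). Among 26 genes of the NRF2 and glutathione group, 7.69% were called, against 5.1% of all genes tested. Gclc, of glutathione synthesis, was lower (log2 change -0.91 ± 0.25, adjusted p = 0.0173) and Tkt, transketolase, higher (log2 change 1.01 ± 0.30, adjusted p = 0.0359). The Gclc call was lost without any 1 of ZT15 replicates 2, 3 and 4 and ZT3 replicate 2 (adjusted p from 0.0697 to 0.101). The Tkt call was lost without any 1 of ZT15 replicates 2, 3 and 4 and ZT3 replicates 1, 2 and 4 (adjusted p from 0.0568 to 0.218).

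Glucocorticoid target genes did not share a direction. Of 14 tested, 5 were higher, with Per1 among them, and 1 lower (42.9% called, against 5.1% of all genes tested). Fkbp5, a cochaperone of the glucocorticoid receptor, had 31.6, 41.1, 48.8 and 59.9 CPM at ZT15, against 16.9, 11.9, 14.8 and 3.75 CPM at ZT3 without overlap (log2 change 1.84 ± 0.25, adjusted p = 5.14e-07). Tsc22d3, which encodes GILZ, averaged 125 ± 37.2 CPM at ZT15 and 62.3 ± 11.7 CPM at ZT3 (log2 change 1.00 ± 0.22, adjusted p = 0.00253). Klf9, a transcription factor, had 70.3, 46.5, 71.8 and 73.1 CPM at ZT15, against 128, 127, 148 and 149 CPM at ZT3. It was lower in every ZT15 library (log2 change -1.07 ± 0.22, adjusted p = 0.000986), with an adjusted p of 0.0602 without the libraries that stood apart. The metallothioneins rested on 1 library. Mt1 had 24.8, 278, 4.36 and 17.1 CPM at ZT15, against 7.02, 11.6, 5.30 and 5.25 CPM at ZT3. Mt2 had 7.16, 169, 3.78 and 5.05 CPM at ZT15, against 2.34, 4.15, 2.47 and 3.75 CPM at ZT3. In replicate 2, which also had high Saa1, both were far above every other library; without it the log2 changes were 0.97 for Mt1 and 0.73 for Mt2, with adjusted p of 0.7 and 0.854, against 3.38 ± 0.95 and 3.85 ± 1.12 with it. The Mt1 call was also lost without ZT3 replicate 1, 3 or 4 (adjusted p of 0.069, 0.0747 and 0.0596), and the Mt2 call without any 1 ZT3 library (adjusted p from 0.0609 to 0.0946). None of 13 immediate early genes passed. Egr1, the one with the largest change, had 0, 4.29, 3.20 and 0 CPM at ZT15, against 25.7, 16.1, 6.01 and 20.2 CPM at ZT3 (log2 change -3.19 ± 1.03, adjusted p = 0.0588).

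Of 28 acute-phase genes 1 passed (3.57%, against 5.1% of all genes tested), Hamp, which encodes the iron hormone hepcidin, at 2207 ± 254 CPM at ZT15 and 1205 ± 391 CPM at ZT3 (log2 change 0.87 ± 0.27, adjusted p = 0.0488), and its call was lost without any 1 of ZT15 replicates 1, 2, 3 and 4 and ZT3 replicates 3 and 4 (adjusted p from 0.0628 to 0.182). The list had a median log2 change of 0.364, with Saa1 at 2092 CPM in ZT15 replicate 2. Hamp and Alas1 were also the 2 risers of 16 iron and haem genes (12.5% called), and Hnf4a and Fabp1 the 2 risers of 11 hepatocyte markers (18.2% called). None of the 4 kept its call in all 8 fits. None of 20 apolipoprotein and lipoprotein assembly genes passed. In the list of major urinary proteins and the growth hormone axis, whose Mup members are near-identical and can share reads, 28 of 30 log2 changes were negative (median -0.38) and 3 passed (10%), Elovl3, Stat5b and Hsd3b5. Stat5b, a transcription factor downstream of growth hormone, had 16.8, 18.9, 18.3 and 17.8 CPM at ZT15, against 36.4, 34.9, 46.7 and 28.5 CPM at ZT3 (log2 change -1.04 ± 0.17, adjusted p = 1.26e-05). Hsd3b5, a male-biased steroid dehydrogenase, averaged 236 ± 88.9 CPM at ZT15 and 499.5 ± 55.6 CPM at ZT3 (log2 change -1.08 ± 0.33, adjusted p = 0.0458), a call that, of the 8 fits without a library, held only in the one without ZT15 replicate 2 (adjusted p from 0.0569 to 0.197 in the other 7). None of the Mup genes tested passed.

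Genes of ribosome assembly gave calls in 1 direction. Of 35, 4 rose and none fell (11.4% called, against 5.1% of all genes tested), with 29 positive changes and a median of 0.332. Ncl, nucleolin, had 79.2, 76.1, 78.5 and 96.2 CPM at ZT15, against 43.4, 53.2, 41.7 and 48.7 CPM at ZT3 without overlap (log2 change 0.82 ± 0.21, adjusted p = 0.00718), but an adjusted p of 0.117 without the libraries that stood apart. Nop56 (log2 change 1.01 ± 0.28), Nop2 (0.97 ± 0.26) and Mrto4 (0.96 ± 0.30), which serve ribosome maturation, passed too. Nop56 was lost without any 1 of ZT15 replicate 3 and ZT3 replicates 3 and 4 (adjusted p from 0.0571 to 0.0834), Nop2 without any 1 of ZT15 replicate 2 and ZT3 replicates 2 and 3 (adjusted p from 0.0578 to 0.0863) and Mrto4 without any 1 of ZT15 replicates 2, 3 and 4 and ZT3 replicates 1, 2 and 3 (adjusted p from 0.0525 to 0.167). None of 78 cytosolic ribosomal protein genes passed, with log2 changes from -0.323 to 0.217, and none of 20 translation factors did. Of 31 proteasome genes only Psmd11 passed (3.23%, against 5.1% of all genes tested). Its log2 change was -0.37 ± 0.12, and it passed in none of the 8 fits without a library (adjusted p from 0.053 to 0.199).

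Among 25 autophagy and lysosome genes, 2 rose and 1 fell (12% called, against 5.1% of all genes tested). Bnip3, a receptor for mitophagy, had 214, 187, 192 and 223 CPM at ZT15, against 92.0, 88.3, 99.7 and 104 CPM at ZT3 (log2 change 1.09 ± 0.14, adjusted p = 5.25e-08). Its relative Bnip3l changed less, by 0.39 ± 0.12 on the log2 scale (adjusted p = 0.0383), a call lost without any 1 of ZT15 replicates 2, 3 and 4 and ZT3 replicates 1, 2 and 4 (adjusted p from 0.0537 to 0.135). Sqstm1, which encodes the cargo receptor p62, had 183, 174, 154 and 152 CPM at ZT15, against 226, 232, 256 and 225 CPM at ZT3. It was lower in every ZT15 library (log2 change -0.50 ± 0.11, adjusted p = 0.00161), though not past the threshold with no filter on low counts (adjusted p = 0.0537). In the cell cycle list Wee1 and Rrm2 were higher and Btg1, an antiproliferative gene, lower, out of 21 (14.3% called). Btg1 changed by -0.81 ± 0.24 on the log2 scale (adjusted p = 0.035), a call lost without any 1 of ZT15 replicates 3 and 4 and ZT3 replicates 1 and 3 (adjusted p from 0.0817 to 0.267). Of 21 liver transcription factors, only Hnf4a passed (4.76%, against 5.1% of all genes tested). Hnf4a averaged 341 ± 32.2 CPM at ZT15 and 225 ± 51.8 CPM at ZT3 (log2 change 0.59 ± 0.14, adjusted p = 0.00487, or 0.0698 without ZT3 replicate 4).

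**Figure D3:**
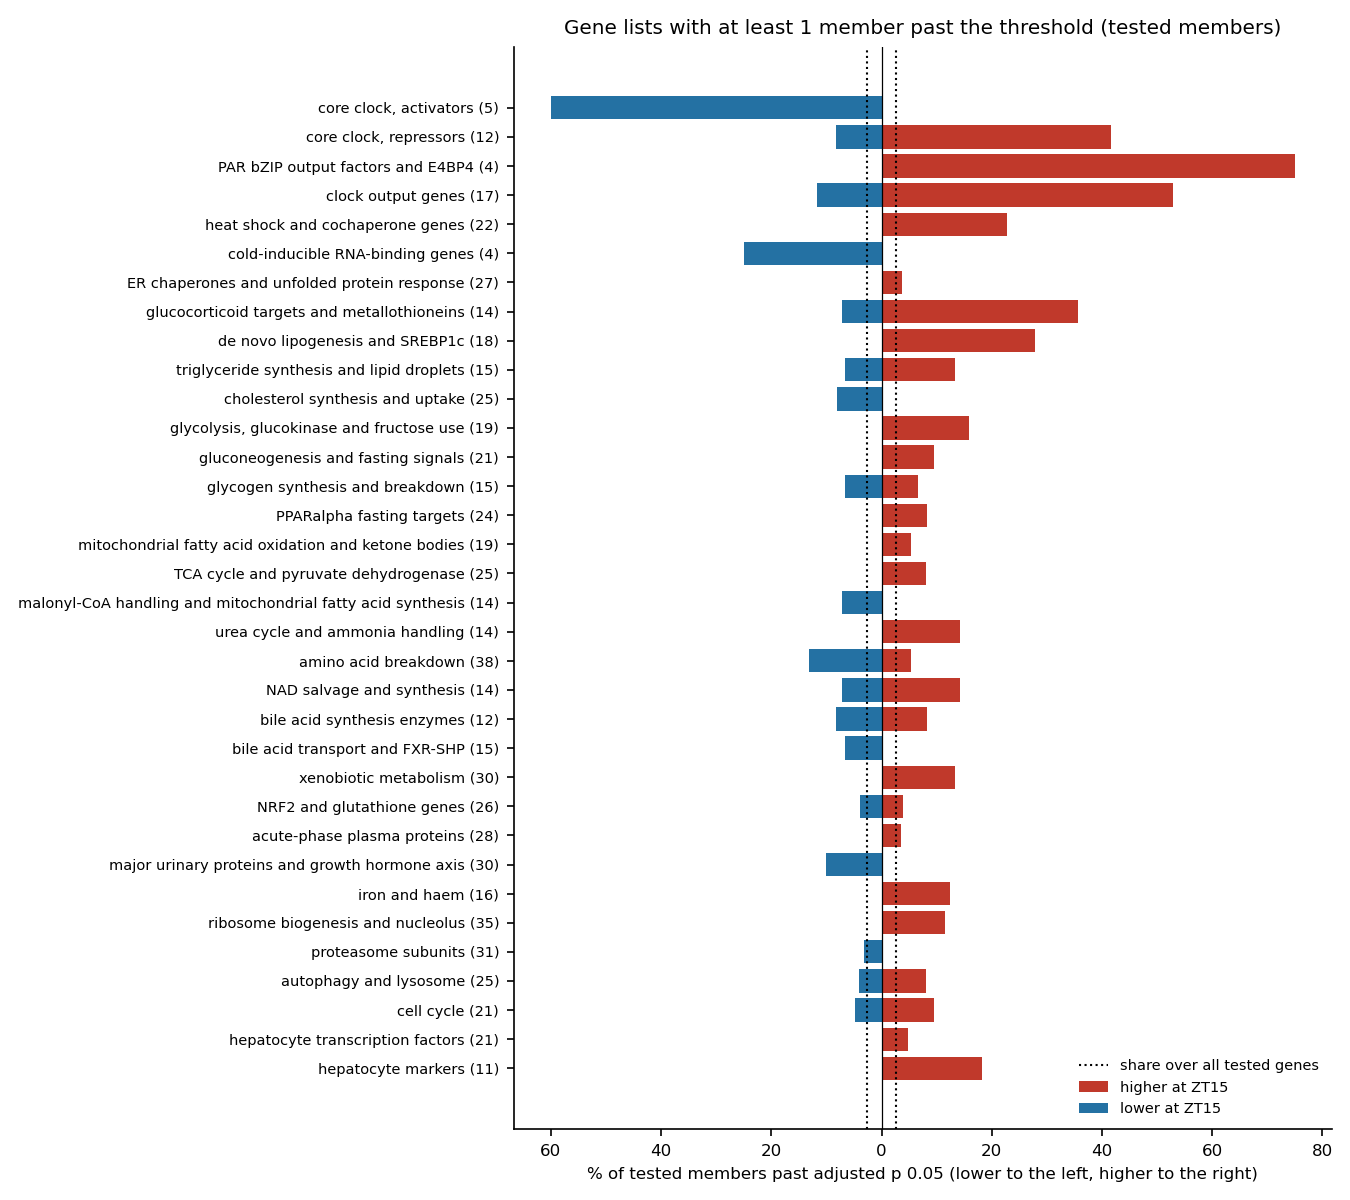
Each bar is a gene list with at least 1 call; its length to the right is the percentage of tested members higher at ZT15 and to the left the percentage lower, with the number tested in parentheses and the share over all tested genes as dotted lines (2.56% and 2.55%). The clock lists reach furthest in both directions. Several lists hold higher members only, among them heat shock, lipogenesis, glycolysis, xenobiotic metabolism and ribosome assembly.

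No marker of another cell type passed the test. None of 14 sinusoidal endothelial, 14 stellate, 12 Kupffer cell, 7 lymphocyte, 5 monocyte, 3 cholangiocyte, 5 red blood cell and 1 adipocyte markers tested passed. Over all genes tested, 5.1% did. Changes were positive in 2 of 14 endothelial (median -0.133), 3 of 14 stellate (-0.217) and 0 of 5 red blood cell markers (-0.293). They were positive in 9 of 12 Kupffer cell markers (0.136), 3 of 7 lymphocyte and 3 of 5 monocyte markers. A change in cell makeup was not tested. Summed levels overlapped for stellate markers (324 to 389 CPM at ZT15 and 332 to 440 CPM at ZT3), Kupffer markers (217 to 349 CPM at ZT15 and 173 to 362 CPM at ZT3) and endothelial markers (251 to 302 CPM at ZT15 and 295 to 332 CPM at ZT3). All 14 tested pancreas markers had a positive log2 change (median 3.45) with no call, and their sum ran from 9.26 to 436 CPM at ZT15 and from 11.0 to 39.5 CPM at ZT3, with the top value in ZT15 replicate 4. Whether this RNA had a part in the results of that library was not tested.

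**Figure D4:**
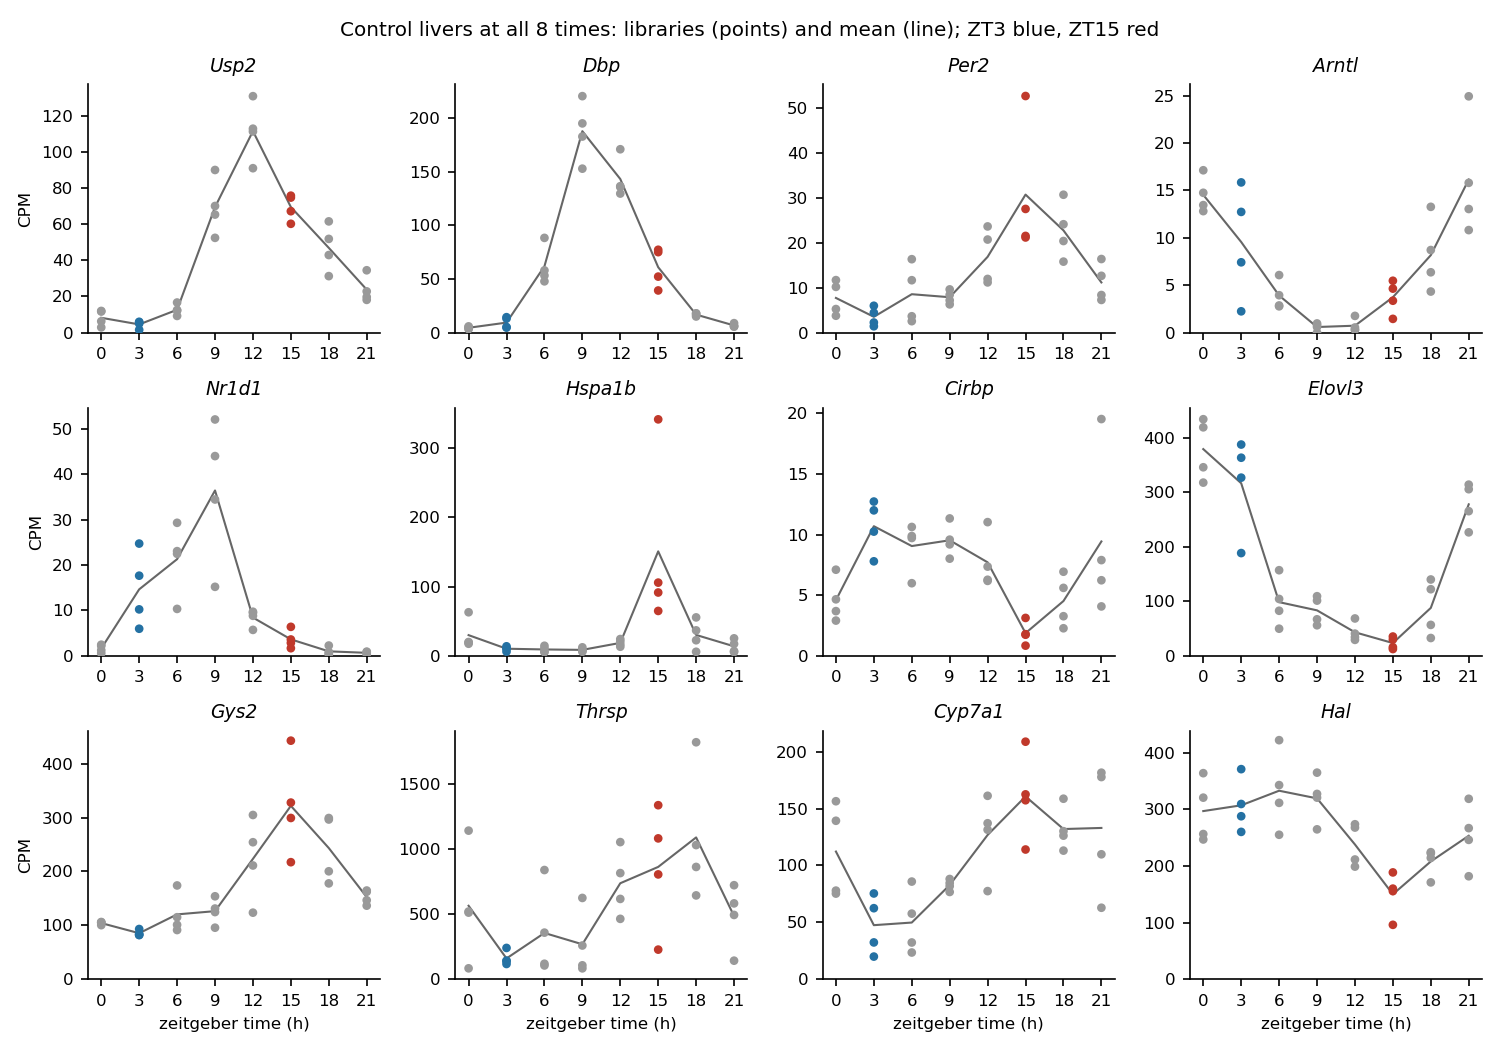
Each panel is 1 gene in the 32 control libraries, with zeitgeber time in hours on the x axis, CPM on the y axis, a point per library and a line through the means; ZT3 is blue and ZT15 red. Usp2 and Dbp are past their highest mean at ZT15 (means of 111 CPM at ZT12 and 188 CPM at ZT9), whereas Hspa1b, Gys2 and Per2 have their highest mean there and Cirbp, Elovl3 and Hal their lowest.

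The ZT15 to ZT3 contrast was set against the control pairs 3 h earlier and later, each also 12 h apart. ZT12 minus ZT0 gave 560 calls (5.55%) and ZT18 minus ZT6 gave 297 (2.94%). Of the 258 genes higher at ZT15, 78 were also higher at ZT12 (30.2% of the 258 and 29.1% of the 268 genes, 2.65% of those tested, higher at ZT12), and of the 257 lower genes 104 were also lower at ZT12 (40.5%, and 35.6% of 292, which are 2.89% of those tested). For ZT18 minus ZT6 the shared calls were 64 higher (24.8%, and 43.8% of 146, or 1.45% of those tested) and 53 lower (20.6%, and 35.1% of 151, or 1.5%). The test of the difference itself named 52 genes (0.515%) against the earlier pair and 54 (0.535%) against the later one. Of these, 20 and 26 kept their call in all 8 fits without a ZT15 or ZT3 library. The count against the earlier pair was 31 without ZT15 replicate 1, 30 without ZT15 replicate 2, 32 without ZT3 replicate 2, 23 without ZT3 replicate 3 and 14 without the libraries that stood apart; against the later pair it was 31 without ZT3 replicate 1.

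Heat shock genes were among those whose ZT15 minus ZT3 change exceeded the ZT12 minus ZT0 change, a test that also depends on ZT0 and ZT3. In ZT12 minus ZT0, 4 of the 22 heat shock and cochaperone genes were lower and none higher (median log2 change -0.29). Mean Hspa1b was 29.9 CPM at ZT0, 10.3 CPM at ZT3, 18.7 CPM at ZT12 and 151 CPM at ZT15. The Hspa1b change was larger by 4.59 ± 0.77 on the log2 scale than the ZT12 minus ZT0 change (adjusted p = 0.000589), which itself was -0.70 ± 0.53. Dnajb1 (difference 1.87 ± 0.43, adjusted p = 0.0213) and Bag3 (1.85 ± 0.43, adjusted p = 0.0267) passed too, though each missed it without ZT15 replicate 2, ZT3 replicate 2 or ZT3 replicate 3 (adjusted p from 0.0515 to 0.113). Cirbp showed the reverse (difference -3.12 ± 0.58, adjusted p = 0.00178), with a mean of 7.71 CPM at ZT12 and 1.88 CPM at ZT15. Its reference means differed too, at 4.59 CPM at ZT0 and 10.7 CPM at ZT3. The smallest p-values of this test were for Nr1d2 (difference -2.70 ± 0.39), Maf1, a repressor of RNA polymerase III (-1.50 ± 0.25), Klhl24, a ubiquitin ligase adaptor (-1.49 ± 0.25), Banp, a DNA-binding protein (2.42 ± 0.40), and Hspa1b. In the first 3 the ZT15 minus ZT3 change was below the ZT12 minus ZT0 change. Maf1 had 14.3, 14.7, 18.3 and 17.8 CPM at ZT15, against 26.2, 26.9, 39.2 and 39.0 CPM at ZT3, and Banp averaged 11.1 ± 1.92 CPM at ZT15 and 3.44 ± 1.06 CPM at ZT3. Nr1d1 also differed (difference -4.05 ± 0.79, adjusted p = 0.00496), with log2 changes of -1.82 for ZT15 minus ZT3 and 2.23 for ZT12 minus ZT0. For Hspa1b against the later pair the difference of 2.28 ± 0.79 did not pass (adjusted p = 0.276). Of 22 heat shock and cochaperone genes, 7 were higher in ZT18 minus ZT6 (median log2 change 0.765). In the test of the difference from that pair, 0 of the 22 passed.

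In the test against the ZT18 minus ZT6 pair, Dbp, Per3, Tef, Rnf125 and Elovl3 had the 5 smallest p-values. The Dbp change was larger by 4.53 ± 0.54 on the log2 scale (adjusted p = 4.91e-07), and its ZT18 minus ZT6 change was -1.88 ± 0.37, of the opposite sign. Per3 (2.96 ± 0.53) and Tef (1.79 ± 0.32) also had differences above 0, and Rnf125 (-2.35 ± 0.36) and Elovl3 (-3.61 ± 0.56) below 0 (adjusted p from 0.000115 to 0.00168). None of these 4 genes passed in ZT18 minus ZT6 itself. Arntl differed too (difference -2.65 ± 0.52, adjusted p = 0.00321), with a log2 change of -1.55 for ZT15 minus ZT3 and a positive one of 1.11 ± 0.36 for ZT18 minus ZT6, which did not pass (adjusted p = 0.0745). Npas2 and Ciart also passed this test (adjusted p = 0.0194 and 0.0113).

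In livers with the sh-Acsf3 hairpin, in which Acsf3 averaged 2.54 CPM at ZT15 and 2.38 CPM at ZT3, 580 genes (5.74%) differed between the same times, 270 higher (2.67%) and 310 lower (3.07%). Of the 258 genes higher in sh-Ctl, 145 were also called higher in sh-Acsf3 (56.2% of the 258 and 53.7% of 270), and 149 of the 257 lower genes were called lower (58%, and 48.1% of 310). None was called in opposite directions, and 255 of the 258 and 252 of the 257 had the same sign. The test of the difference between the hairpins found 0 genes by edgeR, 0 by DESeq2 and 0 by limma-voom. Of the 10097 genes, 291 had an unadjusted p below 0.05, fewer than the 0.05 share that no difference at all would give on average. With no filter on low counts 50 genes passed, in a setting that keeps every gene with a count, also those near 0. Among the 5 smallest p-values were those of Tff2 and of the pancreas enzymes Cpb1, 2210010C04Rik and Pnlip. Tff2, a trefoil peptide, had 0.476 CPM in sh-Acsf3 at ZT15 and 8.84 CPM at ZT3, and 7.58 CPM in sh-Ctl at ZT15 and 0.0884 CPM at ZT3 (unadjusted p = 0.000155). Pnlip had 1.73 CPM in sh-Acsf3 at ZT15 and 190.2 CPM at ZT3, and 13.3 CPM in sh-Ctl at ZT15 and 1.23 CPM at ZT3. The pancreas RNA was uneven between libraries. The summed pancreas transcripts were 14.4 to 44.6 CPM in sh-Acsf3 at ZT15, and at ZT3 they were 5733 CPM in replicate 2, 430.1 CPM in replicate 4 and 9.75 and 16.2 CPM in the other two. In sh-Ctl they were 436 CPM in ZT15 replicate 4 and at most 39.5 CPM in the other 7 libraries. For 4 of the genes described above, both values are given. Usp2 changed by 3.53 ± 0.33 in sh-Acsf3 and 4.03 ± 0.33 in sh-Ctl, and Elovl3 by -3.93 ± 0.44 in sh-Acsf3 and -3.75 ± 0.43 in sh-Ctl. Gys2 changed by 1.97 ± 0.20 in sh-Acsf3 and 1.92 ± 0.20 in sh-Ctl, and Cyp7a1 by 1.94 ± 0.46 in sh-Acsf3 and 1.72 ± 0.45 in sh-Ctl. Mt1 changed by 0.55 ± 0.92 in sh-Acsf3 and 3.38 ± 0.95 in sh-Ctl, and Mt2 by -0.32 ± 1.12 in sh-Acsf3 and 3.85 ± 1.12 in sh-Ctl; neither passed in sh-Acsf3, and the difference did not pass for either (adjusted p = 1 for both).

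**Figure D5:**
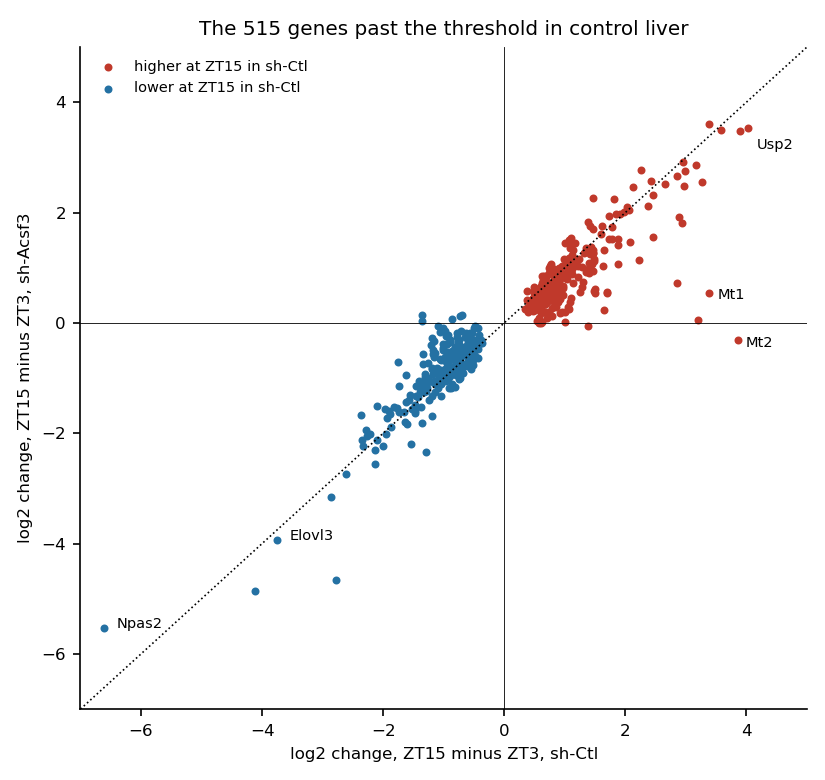
Each point is 1 of the 515 genes called in control liver, with the ZT15 minus ZT3 log2 change in sh-Ctl on the x axis, the same change in sh-Acsf3 on the y axis and the line of equal change dotted. Of the 258 red genes (higher in sh-Ctl) 255, and of the 257 blue genes (lower) 252, have the same sign in sh-Acsf3, and Mt1 and Mt2 lie below the line.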

How the data were processed

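Liver RNA from 64 libraries was counted by BRB-seq, and the deposited table holds raw UMI counts per gene, with STAR and the GRCm38 (mm10) build named in the submitters' processing notes; no columns were left unmapped. Of 55487 genes, 10097 passed edgeR's filter (minimum count 10, minimum total 15) and were tested in 1 quasi-likelihood fit (edgeR 4.0.16, R 4.3.3, robust, TMM) over all 16 groups, with 48 residual degrees of freedom and Benjamini-Hochberg adjustment over all genes. Depth was 1.48 to 4.18 M UMIs in the 8 libraries compared, and no replicate pair was as close as sampling noise would give. The SE of a log2 change is its size divided by the square root of F.

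The members, gene lists and tests were chosen with earlier results of these data known. Named genes are the 12 largest rises and falls without overlap and with a mean of at least 5 CPM, all clock and cold-inducible genes, the up to 6 smallest p of each other list, Acsf3 and the 5 smallest p of each difference test; Saa1, Fasn, Acly, Scd1, Tspan4, Upp2, Mthfd1l and Cdo1 lie outside this rule and were named after their values were seen, and some genes that the rule names are not reported here. Alternatives were other scalings, no filter, DESeq2 1.42.0, limma-voom 3.58.1, the replicate block, the 8 libraries alone and each library left out. Promoters are RefSeq windows (GRCm38.p6).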

Additional observations from a re-analysis of the deposited data

Results flagged for a closer look

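Dixon's ratio was computed for 242 groups of 4 libraries, and 22 exceeded its 95% critical value. Chance gives about 1 in 20 only where values are independent and normally distributed. Most values here are CPM of genes named from the same data, so the count is a description. Of the 22, 9 were in ZT15 replicate 2. It held Saa1 at 2090 CPM (23.2 to 52.0 CPM in the other ZT15 libraries), Hspa1b at 341 CPM (64.8 to 106 CPM), Bag3 at 54.0 CPM (24.3 to 25.6 CPM), Srebf1 at 415 CPM (227 to 237 CPM), Mt1 at 278 CPM (4.36 to 24.8 CPM) and Mt2 at 169 CPM (3.78 to 7.16 CPM). It was the lowest ZT15 library for Pcsk4 at 12.2 CPM, Idh3a at 27.9 CPM and Klf9 at 46.5 CPM.

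ZT15 replicate 4 held the pancreas transcripts at 436 CPM in sum (9.26 to 24.4 CPM in the other ZT15 libraries), with Ncl high at 96.2 CPM and Cbs low at 54.1 CPM. ZT15 replicate 1 was highest for Per1 at 10.1 CPM, Per3 at 14.7 CPM, Clock at 22.7 CPM and Gclc at 222 CPM. Among ZT3 libraries, replicate 3 was highest for Rora at 99.7 CPM, Rrm2 at 4.59 CPM and Tspan4 at 30.7 CPM, replicate 1 for Tubb2a at 167 CPM, and replicate 2 was highest for Gclc at 333 CPM and lowest for Fads2 at 107 CPM. What sets these libraries apart was not tested.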

How the results depend on the processing

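Of 103 named genes past the threshold, 52 passed under every alternative and 51 missed it under at least 1. Leaving out each compared library gave 358 to 457 calls, 189 to 244 higher and 168 to 216 lower. Without the 6 control libraries high in Saa1 or pancreas RNA, an alternative chosen after seeing the data, 266 genes passed (137 higher, 129 lower), ZT18 minus ZT6 had 232 lower genes, and the difference from ZT12 minus ZT0 had 14. Named genes that missed the threshold there included Alas1, Slc2a2, Elovl6, Thrsp, Mid1ip1, Nop2 and Hnf4a. With library totals alone, 154 genes were lower in sh-Ctl at ZT15 and 176 in sh-Acsf3, and ZT18 minus ZT6 gave 70 higher and 271 lower. With no filter on low counts, ZT18 minus ZT6 gave 258 higher and 293 lower genes, and the difference tests gave 50 between the hairpins, 215 against ZT12 minus ZT0 and 223 against ZT18 minus ZT6. Leaving out a library gave 0, 23 to 58 and 31 to 58 calls in these 3 tests. Signs turned for 3 genes with no call. Leaving out a library gave log2 changes of -0.16 to 0.00443 for Csnk1e, -0.161 to 0.0747 for Cry2 and -0.0859 to 0.114 for Rbm7; without the libraries high in Saa1 or pancreas RNA, Rbm7 was at -0.128 and Cry2 at 0.0734, and Cry2 was at 0.0167 with library totals and 0.0182 with the block on 8 libraries. The cause was not tested. The labels do not say whether the replicate numbers pair the samples, and the correlations do not settle it. Deviations of same-numbered libraries correlated at 0.235, 0.00231, 0.291 and 0.122 over 3000 genes. Other pairs ran from -0.292 to 0.323, the highest for ZT15 replicate 1 and ZT3 replicate 2. High Saa1 lay in sh-Ctl replicate 2 at ZT12, ZT15 and ZT18 (4204, 2092 and 2259.5 CPM) and in replicate 1 at ZT9 (3604 CPM). Whether a number marks a batch was not tested. With the replicate block 578 genes passed, and 470 in the fit of the 8 libraries alone, where Hspa1b had a log2 change of 3.66 and missed the threshold (adjusted p = 0.128). Genes with few UMIs, such as Ciart and Npas2, have the least depth behind them.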
